A study of Homo sapiens with 4 samples.

Results

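Broad STAT5A peaks were the wild-type peaks at least 2000 bp wide, chosen by the width given for them in the wild-type peak list. They numbered 1967 of 55269 wild-type peaks (3.56%), covered 5.49 Mb and held 14.1% of all bases under wild-type peaks. Beside each one stood the knockdown peaks that overlapped it by at least 1 bp, with their number and summed width. The data came from ARP1, a human cell line of multiple myeloma labelled as bone marrow, in cells with a YTHDF2 knockdown and in wild-type cells. Chromatin was immunoprecipitated with an antibody to STAT5A and sequenced (ChIP-seq), with 1 immunoprecipitated and 1 input library per condition, 4 libraries in all. A single peak list was deposited for each condition, so no difference between the conditions has a replicate check. The labels do not say how YTHDF2 was knocked down or whether the cells were a single clone. The text on the design mentions histone modifications and the titles give RNA as the input, but the antibody is labelled STAT5A and the molecule DNA, and those labels were followed here.

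STAT5A is a transcription factor that JAK kinases activate by phosphorylation after cytokine signals. It then enters the nucleus as a dimer and binds DNA at a palindrome, written TTCNNNGAA, near target genes such as those of SOCS proteins, PIM kinases and cyclins. A sequence-specific factor usually gives a sharp ChIP-seq peak around its site, and a wide peak forms where enriched fragments run on over several fragment lengths. YTHDF2 is a cytoplasmic reader of N6-methyladenosine (m6A) on RNA that promotes decay of the bound transcripts. CpG islands are stretches of GC-rich DNA that cover the starts of most broadly used genes and of many developmental genes.

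The promoters under broad peaks were rich in G, C and CpG. Of 34961 promoters in the RefSeq table for GRCh38.p14, each running from 250 bases before to 50 bases after a gene start, 1324 lay wholly inside a broad peak. Their median GC content was 73.0%, against 58.7% for all promoters, and their median ratio of observed to expected CpG was 0.885, against 0.580. The ratio exceeded 0.6 in 90.8% of the promoters inside broad peaks and in 48.9% of all promoters. Promoters inside narrower wild-type peaks were of the same kind, with a median ratio of 0.888 at widths of 1000 to under 2000 bp and 0.858 under 1000 bp. By these measures the promoters under broad peaks resembled those under other wild-type peaks.

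Sequences are shown for 5 promoters that mark the ends of the range: the highest fold (DRAP1), a high fold with CCAAT boxes (CABLES2), a homeobox gene among the 10 widest (NKX1-1) and the widest promoter peaks without a knockdown peak that the table covers (DNASE1L2 and NHLRC4). The last 2 were added after their values were seen. All are RefSeq sequences of GRCh38.p14, 5′ to 3′ on the strand of the gene, and capitals mark matches to any of 6 motifs on either strand, merged where they touch. They lie at chr11:65919176-65919475 on the plus strand (DRAP1), chr20:62407236-62407535 on the minus strand (CABLES2), chr4:1406393-1406692 on the minus strand (NKX1-1), chr16:2236194-2236493 on the plus strand (DNASE1L2) and chr16:566755-567054 on the plus strand (NHLRC4).
DRAP1: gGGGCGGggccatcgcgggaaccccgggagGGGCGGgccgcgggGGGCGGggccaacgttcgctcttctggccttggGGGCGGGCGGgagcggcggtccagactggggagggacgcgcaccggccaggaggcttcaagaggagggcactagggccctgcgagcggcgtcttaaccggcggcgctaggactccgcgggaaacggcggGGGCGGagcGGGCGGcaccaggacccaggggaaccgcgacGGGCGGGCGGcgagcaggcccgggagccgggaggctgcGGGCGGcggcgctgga
CABLES2: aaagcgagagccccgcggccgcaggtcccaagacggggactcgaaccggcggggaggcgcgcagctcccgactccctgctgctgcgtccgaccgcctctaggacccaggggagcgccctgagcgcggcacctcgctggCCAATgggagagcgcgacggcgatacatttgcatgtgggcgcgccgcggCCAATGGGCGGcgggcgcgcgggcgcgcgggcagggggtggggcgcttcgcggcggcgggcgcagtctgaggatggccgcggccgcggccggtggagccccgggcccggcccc
NKX1-1: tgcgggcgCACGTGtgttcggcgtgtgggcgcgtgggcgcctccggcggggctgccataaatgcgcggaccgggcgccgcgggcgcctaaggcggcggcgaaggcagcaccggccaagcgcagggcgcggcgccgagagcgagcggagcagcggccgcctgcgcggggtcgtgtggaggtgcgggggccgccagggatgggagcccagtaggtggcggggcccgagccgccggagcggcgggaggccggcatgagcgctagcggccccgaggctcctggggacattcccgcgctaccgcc
DNASE1L2: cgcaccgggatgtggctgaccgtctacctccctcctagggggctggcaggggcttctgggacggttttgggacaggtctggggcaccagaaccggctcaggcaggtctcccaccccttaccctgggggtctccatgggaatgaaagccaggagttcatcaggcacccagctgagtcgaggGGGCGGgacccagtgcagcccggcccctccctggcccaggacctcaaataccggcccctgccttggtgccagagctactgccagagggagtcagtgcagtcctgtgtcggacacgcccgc
NHLRC4: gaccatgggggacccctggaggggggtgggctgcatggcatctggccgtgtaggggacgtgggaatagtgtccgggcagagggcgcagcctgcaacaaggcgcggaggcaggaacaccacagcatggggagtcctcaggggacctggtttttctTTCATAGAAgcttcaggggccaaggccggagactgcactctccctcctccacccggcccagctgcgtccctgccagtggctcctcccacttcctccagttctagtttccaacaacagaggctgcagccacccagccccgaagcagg
DRAP1 held 10 copies of GGGCGG, the GC box bound by SP and KLF factors. CABLES2 held 2 copies of CCAAT, the box bound by NF-Y, and 1 GC box that touches the second of them. NKX1-1 held 1 CACGTG E-box and had an observed to expected CpG ratio of 1.07. In the promoters under peaks without a knockdown counterpart that ratio was 0.360 at DNASE1L2 and 0.322 at NHLRC4. NHLRC4 alone among the 5 held the STAT palindrome, as TTCATAGAA. Of the 43 promoters inside broad peaks without a knockdown peak, NHLRC4 was the only 1 that held it (2.33%). Among 1281 promoters inside broad peaks with a knockdown peak, 3.12% held it. The median CpG ratio of the 43 was 0.647, so DNASE1L2 and NHLRC4 both lay below the middle of their group.

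Across all promoters inside broad peaks, 3.10% held TTCNNNGAA, against 7.66% of all promoters in the table. GGGCGG was present in 85.0% against 45.0%, CACGTG in 9.97% against 7.27%, CCGGAAG, the core bound by ETS factors, in 9.14% against 10.3%, CCAAT in 27.04% against 34.6%, and TGANTCA, the AP-1 site, in 2.42% against 7.68%. Most promoters of the table lay in no wild-type peak, and those inside wild-type peaks of 1000 to under 2000 bp held TTCNNNGAA in 3.02%, GGGCGG in 85.6%, CACGTG in 9.67% and TGANTCA in 2.62%, close to the shares in broad peaks. CCAAT stood in 32.1% of them. CCGGAAG was present in 15.03% of promoters inside peaks of 1000 to under 2000 bp and in 21.8% inside peaks under 1000 bp, above the 9.14% in broad peaks. CCAAT split the broad peaks by fold: 46.6% of 395 promoters inside broad peaks with a fold of at least 20 held it, against 18.7% of 929 inside broad peaks with a lower fold. At least 2 CCAAT boxes stood in 26.6% of the promoters at the higher fold and in 2.69% at the lower. Promoters inside wild-type peaks of 1000 to under 2000 bp with a fold of at least 20 held CCAAT in 58.6%, so the box went with fold and was not particular to broad peaks. A match is a string of letters in a window of 300 bases, and it does not show binding.

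In width, the broad peaks ran continuously into the other peaks. Their median was 2475 bp, the middle 50% lay between 2199 and 3002.5 bp, and the widest reached 19180 bp, against a median of 507 bp for all wild-type peaks. The median fold enrichment was 11.01 with a range of 3.90 to 3972, against a median of 6.0 for all wild-type peaks. Fold here is the peak caller's own ratio for each peak, and width, fold and q-value of the wild-type list are descriptions because the width chose the peaks. All broad peaks had a q-value of 0.000382 or less, and 144 were listed at 0. The last peaks inside the limit lay at LSM14B (2000 bp, fold 9.20), GDF7 (2001 bp, fold 13.9) and LHX2 (2001 bp, fold 8.05), and the first outside it at GSE1 (1 bp below the limit, fold 4.75), GATA5 (1998 bp, fold 14.2) and USP7 (1998 bp, fold 12.4). GSE1 and GATA5 had no knockdown peak and the other 4 had at least 1.

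**Figure D1:**
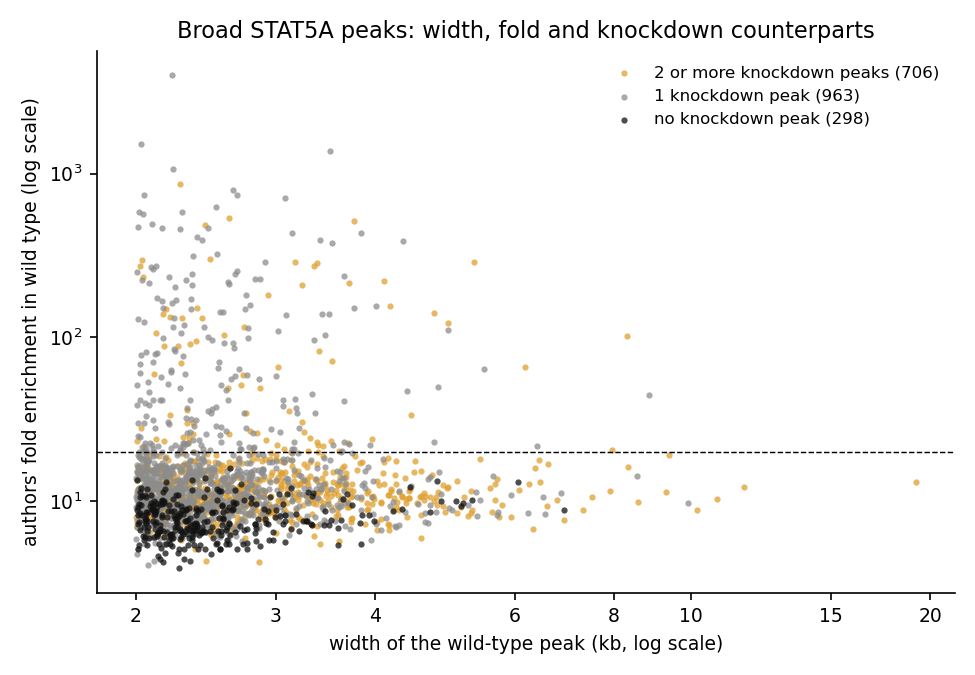
Each point is 1 of the 1967 broad wild-type STAT5A peaks, with its width in kb on the x axis and the authors' fold enrichment on the y axis, both log scales. Colours give the number of overlapping knockdown peaks, and above the dashed line at a fold of 20 all 285 peaks had at least 1.

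Far fewer peaks of this width were called after YTHDF2 knockdown. The knockdown list held 295 peaks of at least 2000 bp among 31227 (0.945%), covering 0.711 Mb, against 1967 and 5.49 Mb in wild type. The knockdown list had 15% as many broad peaks as the wild-type list, whereas over peaks of every width it had 56.5% as many. The gap widened with width: at 3000 bp or more there were 24 knockdown and 495 wild-type peaks, at 4000 bp or more 3 and 165, and at 5000 bp or more 0 and 65. The widest knockdown peak measured 4397 bp and the widest wild-type peak 19180 bp. Broad peaks had a median fold of 6.56 in the knockdown list and 11.01 in the wild-type list. Depth is unknown, so sequencing depth and condition cannot be told apart in these numbers.

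Most broad peaks nevertheless had a knockdown peak beneath them. Of the 1967, 1669 (84.9%, exact Clopper-Pearson 95% interval 83.2 to 86.4%) overlapped at least 1 knockdown peak, against 40.4% of all wild-type peaks and 38.8% of those under 2000 bp. The share was lower in each narrower class, at 80.2% at 1500 to under 2000 bp, 74.8% at 1000 to under 1500 bp, 49.8% at 500 to under 1000 bp and 19.4% under 500 bp. An overlap of 1 bp is easier to meet for a wide peak, so 2 further measures were taken. The summit of 1282 broad peaks (65.2%) lay inside a knockdown peak, against 34.3% of all wild-type peaks, 66.9% at 1500 to under 2000 bp and 64.5% at 1000 to under 1500 bp. At least 50% of the bases were covered by knockdown peaks in 873 broad peaks (44.4%), against 30.1% of all wild-type peaks, 52.5% at 1500 to under 2000 bp and 53.6% at 1000 to under 1500 bp. By summit, broad peaks thus stood level with peaks of 1000 to under 2000 bp, and by covered share they stood below them. The intervals cover counting error only, and neighbouring peaks are not independent of each other.

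**Figure D2:**
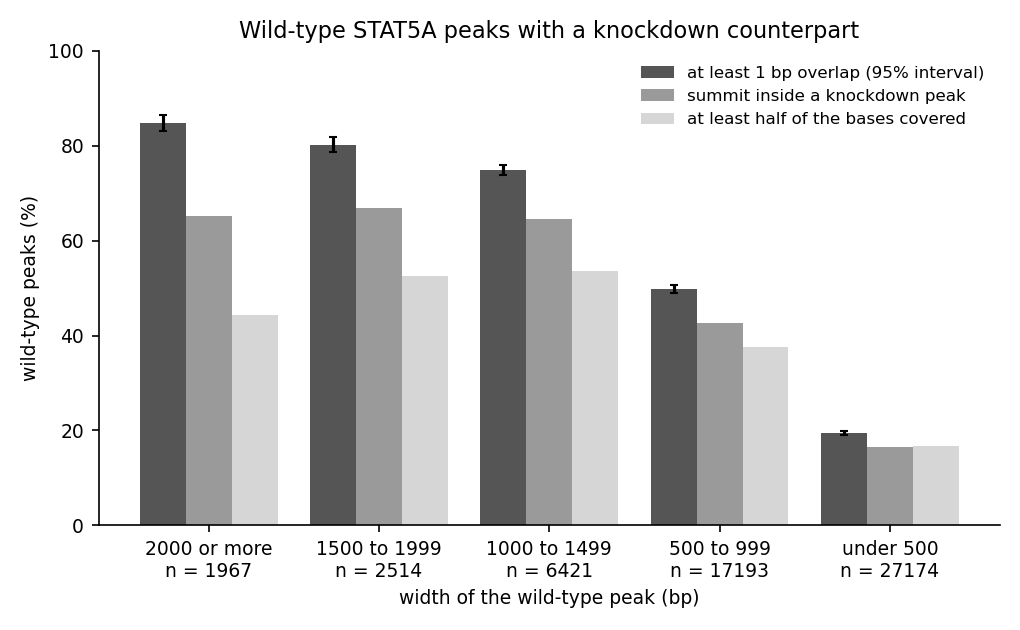
Bars give the percentage of wild-type STAT5A peaks of each width class, in bp on the x axis, that met 3 measures of a knockdown counterpart, with exact 95% intervals on the overlap of 1 bp. Broad peaks led in overlap (84.9%), were close to the next 2 classes by summit (65.2%) and were below them by bases covered (44.4% against 52.5 and 53.6%).

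What lay beneath a broad peak was usually a smaller peak or a few fragments of one. A single knockdown peak was found under 963 broad peaks (49.0%), 2 under 542 (27.6%), 3 under 131 (6.66%), 4 or more under 33 (1.68%) and none under 298 (15.2%), with a maximum of 10. At least 2 were found under 706 (35.9%), against 3.04% of all wild-type peaks and 16.1% of those of 1500 to under 2000 bp. A wider peak has room for more knockdown peaks, so this difference follows in part from the width that chose the broad peaks. The 2601 knockdown peaks under broad peaks (8.33% of the knockdown list) had a median width of 657 bp and a median fold of 4.47. Where there was an overlap, the summed knockdown width had a median of 1412 bp, the middle 50% between 770 and 1962 bp and a maximum of 5497 bp. The knockdown peaks covered a median of 43.9% of a broad peak over all 1967 and of 52.8% over the 1669 with an overlap. The summit of the strongest knockdown peak lay a median of 207 bp from the wild-type summit and within 100 bp of it in 668 of the 1669 (40.0%). For narrower shared wild-type peaks the median distance was 75 bp and 57.8% lay within 100 bp. Summits can lie farther apart in a wide peak, so the larger distance follows in part from the width that chose the broad peaks.

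Pieces became more numerous and coverage thinner as the broad peaks widened. With classes starting at 2000, 2500, 3000, 4000 and 6000 bp there were 1029, 443, 330, 131 and 34 peaks. The share with a knockdown overlap was 82.2, 84.7, 89.4, 92.4 and 94.1% in that order. The share with at least 2 knockdown peaks was 26.6, 35.4, 51.2, 62.6 and 70.6%. The median covered share was 48.8, 44.2, 43.6, 25.3 and 28.3%, and the share covered to at least 50% was 48.7, 43.1, 43.6, 23.7 and 17.6%. The widest classes almost always touched a knockdown peak and were seldom filled by it. A longer interval meets more knockdown peaks and is harder to fill, so these trends follow in part from width itself.

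The 10 widest peaks showed this pattern one by one. At MUC5B, the gene of a gel-forming airway mucin, 7 knockdown peaks of 235 to 1479 bp summed to 3680 bp (19.2% covered) under a wild-type peak of 19180 bp at chr11:1218356-1237535 with a fold of 13.2. None of the 7 reached the wild-type summit, and the strongest had a fold of 6.04. At DGKQ, which encodes diacylglycerol kinase theta, 7 knockdown peaks summed to 2636 bp (25.9%) under a wild-type peak of 10176 bp at chr4:959170-969345 with a fold of 8.83, and at a knockdown q-value under 0.001 the covered share there was 16.2%. NKX1-1, a homeobox gene, had the best filled of the 10, with 7 knockdown peaks summing to 5497 bp (58.5%) under 9392 bp at chr4:1398615-1408006. The strongest knockdown peak there had a fold of 8.27, against 19.3 for the wild-type peak, and their summits were 54 bp apart. EME2, which encodes a partner subunit of the MUS81 nuclease, had a single knockdown peak of 3173 bp with a fold of 16.8 under a wild-type peak of 8854 bp with a fold of 44.5 at chr16:1765753-1774606. The 2 summits were 10 bp apart, and the wild-type peak held the starts of 3 genes.

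The other 6 of the 10 widest were covered to between 3.13 and 42.8%. At TMEM259, 1 knockdown peak of 310 bp covered 3.13% of 9903 bp (wild-type fold 9.74). At PLEC, the gene of the cytoskeletal linker plectin, 2 knockdown peaks covered 13.0% of 10764 bp (fold 10.4), and at the microRNA gene MIR1225 1 knockdown peak of 430 bp covered 5.03% of 8549 bp (fold 14.2). At a knockdown q-value under 0.001 the PLEC peak was covered to 7.44% and the MIR1225 peak had no knockdown peak left. MUC6, another secreted mucin gene, had 6 knockdown peaks over 30.1% of 8564 bp (fold 9.85). A pair of distal intergenic peaks on chromosome 12 was credited to ALG10, 312638 and 324637 bp from its transcript start. They held 10 and 6 knockdown peaks over 34.5% of 11670 bp and 42.8% of 9293 bp, with wild-type folds of 12.3 and 11.4. Mucin genes such as MUC6 and MUC5B contain repeated coding sequence, the gene that hosts MIR1225 has near-identical pseudogene copies, and the ALG10 pair lay close to the centromere of chromosome 12. The sources used here do not say how reads with several matches were placed, so widths at these loci are uncertain.

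**Figure D3:**
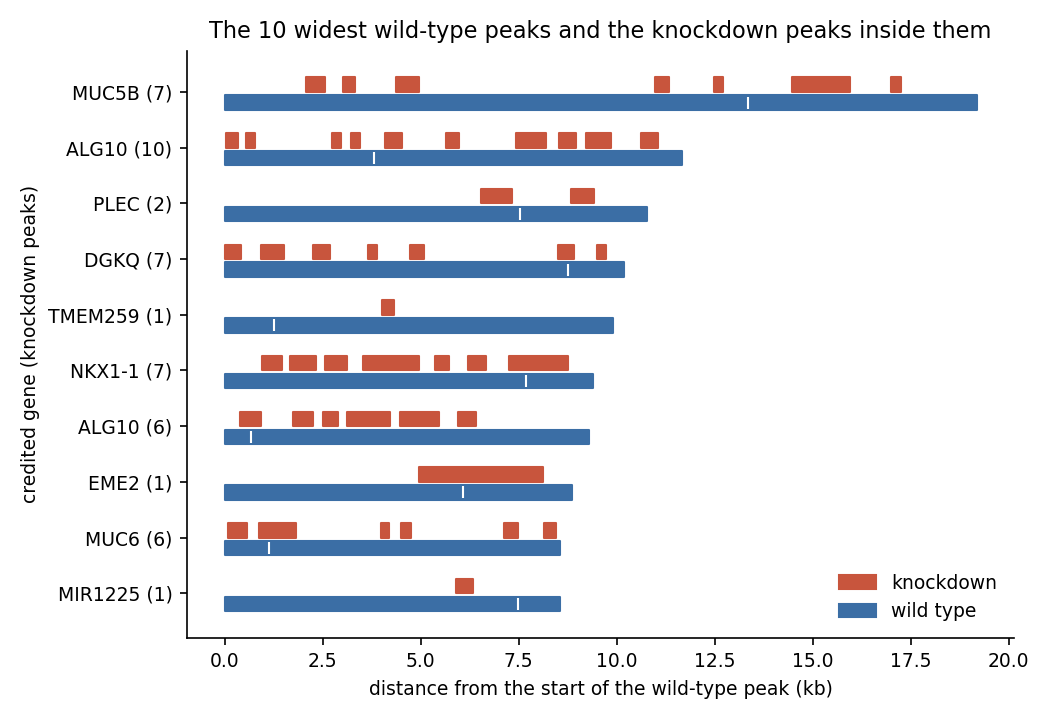
Each row is 1 of the 10 widest wild-type peaks (lower bar, with its summit as a white tick) and the knockdown peaks inside it (upper bars), against the distance from the start of the wild-type peak in kb. The number of knockdown peaks stands after the credited gene: 7 separate pieces at MUC5B, 10 at the first ALG10 peak and 1 at EME2, TMEM259 and MIR1225.

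The share of broad peaks found again was higher at higher fold, although most of those found again (1384 of 1669) had a fold under 20. All 285 broad peaks with a fold of at least 20 (14.5%, against 4.62% of all wild-type peaks and 16.5% of those of 1500 to under 2000 bp) overlapped a knockdown peak, and all 285 summits lay inside one. The same held for narrower peaks of such fold: in each fold class from 20 up, both shares were 100% at 1000 to under 2000 bp and between 99.2 and 100% under 1000 bp. Below a fold of 20, 1384 of 1682 (82.3%) overlapped a knockdown peak and 997 (59.3%) had the summit inside one. The knockdown peaks covered a median of 76.9% of a broad peak at the higher folds and of 35.0% at the lower. At a fold of 10 to 20, 94.8% of broad peaks, 94.9% of peaks of 1000 to under 2000 bp and 86.7% of peaks under 1000 bp had a knockdown overlap, and the summit lay inside one in 78.8, 88.2 and 83.6%. At a fold of 5 to 10 the overlaps were 68.4, 56.0 and 31.9%, and the summit shares 37.1, 37.5 and 26.2%. At equal fold, a broad peak was thus no more likely than one of 1000 to under 2000 bp to have its summit inside a knockdown peak.

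The 8 broad peaks of highest fold all had a knockdown peak with its summit within 10 bp. DRAP1, whose product is a corepressor of RNA polymerase II transcription, led with a knockdown peak of 2110 bp and a fold of 1705.5 over a wild-type peak of 2217 bp and a fold of 3972. ZNF668, a zinc finger gene, had knockdown and wild-type folds of 349 and 1519 and was fully covered. TSEN54, for a subunit of the tRNA splicing endonuclease, had folds of 238 and 1376 and was covered to 61.6%. At CABLES2 a knockdown peak of 1105 bp and a fold of 333 lay over a wild-type peak of 2224 bp and a fold of 1065. PANK4 had knockdown and wild-type folds of 285 and 740, and P3H4 had 191 and 790. The remaining peaks lay at FGF9, a growth factor gene (folds 140 and 862), and ADGRA2, an adhesion receptor gene (204 and 740). In each of the 8 the fold was lower in the knockdown list, as the median was over the whole list (4.35 against 6.0), and these ratios are set side by side and are not a measured change.

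Some broad peaks were filled by knockdown signal. Knockdown peaks covered at least 90% of 175 broad peaks (8.90%) and all of 23, and in 57 the summed knockdown width exceeded the wild-type width. Largest in summed knockdown width after NKX1-1 were the homeobox gene NKX6-2 (5160 bp in 4 peaks under 7942 bp), the insulin receptor substrate gene IRS2 (5080 bp in 2 under 6172 bp) and PHPT1 (4620 bp in 6 under 8302 bp). They were followed by PTMA, the prothymosin alpha gene (4397 bp in 1 under 4799 bp), and MIR6821 (4245 bp in 1 under 4740 bp). The MIR6821 peak held 2 gene starts, 1 of them of a protein-coding gene, so the credit does not show which gene the peak serves. Folds in knockdown and wild type were 18.7 and 66.0 at IRS2, 33.4 and 102 at PHPT1, and 27.6 and 49.7 at PTMA.

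The 298 broad peaks without a knockdown peak were of lower fold and less often at transcript starts. Their median fold was 7.60, against 11.8 for those with a knockdown peak, and 37.2% of them spanned a transcript start, against 70.3%. The 10 widest were led by DNASE1L2, a DNase I family gene (6916 bp, fold 8.82), SOX8, a transcription factor gene (6046 bp, fold 13.0), and EEF1A2, a translation elongation factor gene (5298 bp, fold 10.2). The others lay at NHLRC4 (5165 bp), ARHGAP45 (5131 bp), AGRN (5061 bp), TAS1R3 (4848 bp), CTBP1 (4781 bp), TRAF7 (4685 bp) and the RTEL1-TNFRSF6B readthrough (4421 bp), with folds of 8.61 to 13.3. High folds without a counterpart, picked after the values were seen, stood at SCRT1 (15.9), COL18A1 (13.9) and the homeobox gene NKX2-2 (13.4). Only 43 promoters of the RefSeq table lay inside these peaks, with a median observed to expected CpG ratio of 0.647, against 0.887 for 1281 promoters inside broad peaks with a knockdown peak.

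Applied to the knockdown list, the same width rule found peaks that all overlapped a wild-type peak and lay mainly in the promoter class. All 295 broad knockdown peaks overlapped a wild-type peak, against 77.1% of all knockdown peaks. In the promoter class within 1 kb were 270 (91.5%), against 70.7% of broad wild-type peaks. A wide peak meets another peak or a transcript start more easily, and the promoter share over all knockdown peaks was not computed. Of the 295, 257 (87.1%) overlapped a broad wild-type peak, and 257 of the 1967 (13.1%) lay under a broad knockdown peak. The widest were at PTMA (4397 bp), MIR6821 (4245 bp), ING1, a tumour suppressor gene (4130 bp, knockdown fold 61.2 and wild-type fold 156), LINC01126 (3791 bp) and PPP1R9B (3749 bp, folds 106 and 237). The remaining 38 overlapped narrower wild-type peaks alone, led by IRF2BP2 (2980 bp), SYNDIG1 (2786 bp), ADAMTSL5 (2727 bp) and PHLDA2 (2655 bp). Each of these 4 knockdown peaks ran over 2 separate wild-type peaks, so that a broad peak in one list met pieces in the other in this direction as well.

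Broad peaks lay mainly at promoters. The authors' class for promoters within 1 kb held 1390 of them (70.7%), against 38.9% of all wild-type peaks, and 1284 (65.3%) spanned a transcript start, against 28.7%. Peaks of 1500 to under 2000 bp spanned one in 66.6%, so the share was not particular to the broad class, and a wide peak meets a start more easily. Distal intergenic sites held 168 (8.54%), against 22.1% of all wild-type peaks, and introns 101 (5.13%), against 18.2%. Exons held 107 (5.44%), promoters at 1 to 3 kb 117 (5.95%), 3′ UTRs 66 (3.36%), 5′ UTRs 11 and downstream regions 7. A knockdown peak lay under 89.6% of those in the promoter class within 1 kb, 87.5% of distal intergenic, 72.9% of exonic, 69.7% of 3′ UTR, 68.3% of intronic and 59.8% of those in promoters at 1 to 3 kb. The median covered share was 55.0% in the promoter class and between 13.1 and 37.1% in these other 5.

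Broad peaks that spanned a transcript start had a knockdown peak most often. Of the 1284 such peaks, 91.4% had a knockdown peak, against 67.9% of the 106 beside a start within 1 kb and 73.5% of the 577 farther away. Their median folds were 12.7, 8.93 and 9.0 in the same order, and the part of fold in the difference was not tested. RefSeq gene starts with a known strand were counted, 1 per gene at the outermost 5′ end of its span. Of the broad peaks, 1019 (51.8%) held at least 1 such start and 279 (14.2%) at least 2. At least 2 lay in 4.4% of all wild-type peaks and in 14.4% of those of 1500 to under 2000 bp. Per base the broad peaks held 2.40 starts per 10 kb, against 3.71 for all wild-type peaks. In the narrower classes from under 500 bp up to 1500 to under 2000 bp the values were 1.98, 4.72, 4.98 and 3.96. The width that chose the broad peaks is part of this measure, so their lower value follows in part from it. Divergent pairs, in which neighbouring genes start back to back, lay in 165 (8.39%), against 2.94% of all wild-type peaks and 9.51% at 1500 to under 2000 bp. Knockdown peaks overlapped 73.6% of the 948 broad peaks with no such RefSeq start, 94.3% of those with 1, 97.7% of the 260 with 2 and all 19 with 3. Of the 948, 328 (34.6%) still spanned a transcript start by the authors' distance, so they were not all free of starts. Where the promoter table lacked a gene, its strand came from the peak lists, so the start counts are not independent of the peaks. EME2, MIR3195, MIR6743 and PFKP were examples with 3 starts, and each had at least 1 knockdown peak.

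Broad peaks away from starts included some of the widest. Besides the ALG10 and MUC6 peaks they lay in the 3′ UTR class at MUC5B (7902 bp, 7 knockdown peaks over 44.8%) and C19orf25 (6863 bp, 1 over 45.0%), and in exons of ACSF3 (7305 bp, 2 over 9.99%) and MUC5AC (6595 bp, 5 over 35.1%). At a knockdown q-value under 0.001 the covered share was 19.8% at this MUC5B peak (27.7% at a q-value under 0.01) and 0 at ACSF3, where neither knockdown peak was left. ELFN1 (8321 bp, fold 16.1, 2 knockdown peaks over 41.5%) counted as distal by the authors' distance of -15856 bp, but the start of 1 protein-coding gene of the RefSeq table lay inside the peak, 1166 bp from its summit. In broad peaks with a RefSeq start inside, the summit lay a median of 158 bp from it at a fold of at least 20 (246 peaks) and 346 bp at lower folds (773 peaks), against 125 bp in narrower wild-type peaks. A start inside a peak can lie no farther from the summit than the peak is wide, so the larger distance in broad peaks follows in part from the width that chose them.

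Broad peaks gathered near chromosome ends. Within 5 Mb of the chromosome start or of the last annotated gene lay 1070 of them (54.4%), against 32.9% of narrower wild-type peaks. They made up 7.27% of wild-type peaks in the outermost 1 Mb, 7.53% at 1 to 2 Mb, 3.62% at 2 to 5 Mb and 2.45% beyond 20 Mb. Those within 5 Mb had a knockdown peak in 78.5%, a median covered share of 28.2% and a median fold of 10.0. Elsewhere the values were 92.4%, 62.6% and 12.3. Narrower wild-type peaks differed in the same direction, with a knockdown overlap of 27.8% near the ends and 44.1% elsewhere. Near the ends 55.2% of the broad peaks spanned a transcript start, against 77.3% elsewhere, and the part of fold and of starts in the result was not tested. The 2 ends of a chromosome often differed. Of the broad peaks near an end, the first 5 Mb held all 76 on chromosome 4 and 73 of 75 on chromosome 11. On chromosomes 9 and 10 it held 2 of 68 and 1 of 55, and on chromosome 16 it held 109 of 161.

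**Figure D4:**
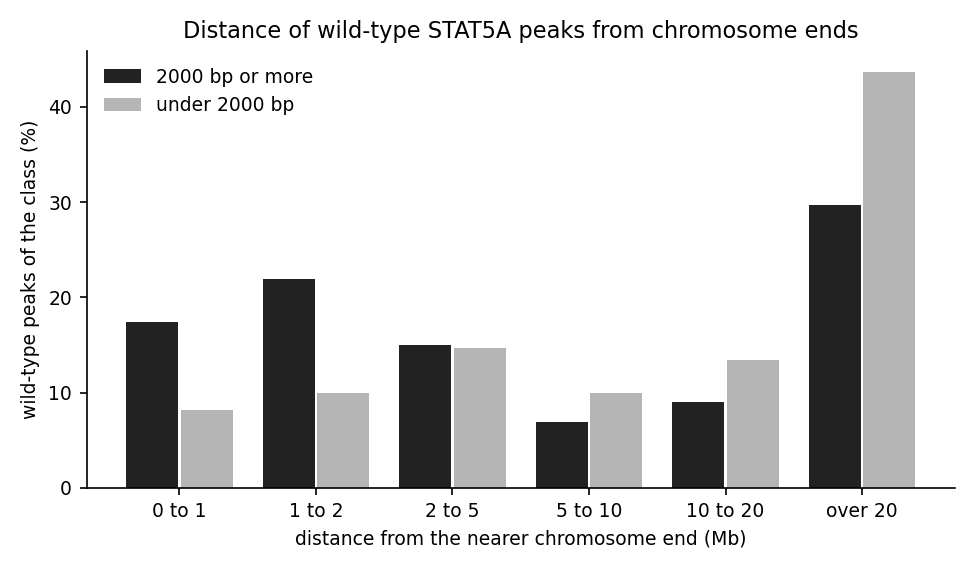
Bars give the share of wild-type STAT5A peaks of at least 2000 bp (dark) and under 2000 bp (light) by distance from the nearer chromosome end in Mb, each class summing to 100%. Broad peaks exceeded narrower ones in the outermost 2 bins, at 17.4 against 8.20% and 22.0 against 9.95%.

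Single windows of 1 Mb held many broad peaks. Of 744 windows with at least 1, the fullest 20 held 565 (28.7%), and 610 broad peaks (31.0%) lay within 10 kb of another. On chromosome 16, the window at 1 to 2 Mb held 46, including those at EME2, CLCN7, IGFALS and CACNA1H, of which 69.6% had a knockdown peak and a median of 11.5% was covered. The first 1 Mb of the same chromosome held 38, of which 55.3% had a knockdown peak. On chromosome 11, the window at 1 to 2 Mb with the mucin genes MUC6, MUC2, MUC5AC and MUC5B and the kinase gene BRSK2 held 38, of which 89.5% had a knockdown peak. Windows at 1 to 2 Mb of chromosomes 19 and 4 held 38 and 36. Chromosome 16 had the highest share of broad peaks, 191 or 6.01% of its wild-type peaks, and the lowest share with a knockdown peak, 70.2%. Chromosome 3 had the lowest share of broad peaks, 44 or 2.00%, and chromosome 6 the highest share with a knockdown peak, 98.0%. The genes credited most often were CACNA1H, a calcium channel gene, with 12 broad peaks, 9 of them over a knockdown peak, and BRSK2, MAD1L1 and FAM53A with 11 each.

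By gene group, broad peaks were most frequent at genes of KLF transcription factors. Over all 19974 protein-coding genes, 1.25% were credited with a broad peak in the knockdown list and 6.41% in the wild-type list. Among promoter-class wild-type peaks credited to such genes, 6.35% were broad. Of 18 KLF genes, 4 were credited with one in the knockdown list and 10 (55.6%) in the wild-type list, and all 10 wild-type peaks overlapped a knockdown peak. KLF10, a TGF-beta-induced repressor gene, had 2713 bp of knockdown peaks with a top fold of 68.4 under 3172 bp with a fold of 287. KLF13 had 2804 bp and a fold of 12.1 under 3065 bp and a fold of 37.9. KLF4, a pluripotency factor gene, had 2685 bp and a fold of 6.06 under 3682 bp and a fold of 9.23, and KLF16 2544 bp and 5.66 under 3963 bp and 9.64. KLF3, KLF12, KLF13 and KLF15 were the 4 with a broad peak in both lists.

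Immediate early and stress response factors followed, with 2 of 24 in the knockdown list and 9 (37.5%) in the wild-type list. KLF2, KLF4, KLF10 and MYC, which also belong to other lists, were among the 9. EGR1, a serum-induced zinc finger factor gene, had 2103 bp in 3 knockdown peaks (fold 5.93) under 3208 bp (fold 10.7), with the top summits 12 bp apart. At the stress factor gene ATF3 1726 bp of knockdown peak (fold 4.64) lay under 2884 bp (fold 15.6). At ZFP36, whose product promotes decay of AU-rich transcripts, 2160 bp (fold 3.70) lay under 2296 bp (fold 9.70). FOSL2 and EGR3 were the other 2.

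Chromatin modifiers had the same count, 9 of 24 genes in the wild-type list, with 4 in the knockdown list. EZH2, the H3K27 methyltransferase gene, had a knockdown peak of 1945 bp and a fold of 14.6 under a wild-type peak of 2192 bp and a fold of 52.2. KMT2B, for an H3K4 methyltransferase, had 2333 bp and a fold of 38.2 under 3090 bp and a fold of 137. CREBBP, SETD1B, NSD1, NSD2, KDM2A, KDM2B and KDM6B were the others, and 1 of the KDM2B peaks, with a fold of 5.77, had no knockdown peak.

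Plasma cell and myeloma genes had a broad peak in 4 of 24 in the knockdown list and in 7 in the wild-type list. IRF4, a factor that plasma cells depend on, had 2544 bp of knockdown peak (fold 7.10) over a wild-type peak of 2485 bp (fold 15.8). SDC1, the gene of the plasma cell marker CD138, had 2330 bp (fold 5.81) under 2872 bp (fold 15.1). The plasma cell markers TNFRSF17, PRDM1, XBP1, MZB1, JCHAIN, SLAMF7, POU2AF1, CD38 and FCRL5 were not among the 7. NSD2, the methyltransferase gene joined to the immunoglobulin locus in some myelomas, had 2110 bp (fold 9.26) under 2114 bp (fold 27.8). FGFR3, its neighbour in that translocation, carried 3 broad peaks with wild-type folds of 16.3, 8.55 and 6.35. Knockdown peaks of 1156 and 1060 bp lay under the first 2 and none under the third, and the one of 1060 bp was no longer counted at a knockdown q-value under 0.001. CCND1, the cyclin D1 gene, had 1945 bp (fold 7.73) under 3586 bp (fold 12.8). Markers of other tissues had a broad peak in 0 of 22 in the knockdown list and in 1 in the wild-type list, NEUROG2 (1600 bp in 3 peaks under 2230 bp). Occupancy is not expression, so these counts do not check the cell type.

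STAT5 target genes had a broad peak in 2 of 24 in the knockdown list and in 6 in the wild-type list, and each of the 6 lay over a knockdown peak. SOCS1, the feedback inhibitor of JAK kinases, had 2240 bp (fold 5.25) under 2319 bp (fold 17.0). PIM1, a survival kinase gene, had 2 knockdown peaks (top fold 4.501) over 62.7% of 2315 bp (fold 14.3), and CDKN1A, the p21 gene, 1778 bp (fold 4.47) under 2213 bp (fold 15.3). MYC had 2063 bp (fold 6.39) over 2044 bp (fold 12.5), and CCND1 and SPRED2 completed the 6. None of 25 JAK-STAT signalling genes had a broad peak in either list, and 23 had some wild-type peak. Over all protein-coding genes the shares were 1.25% in the knockdown list and 6.41% in the wild-type list, so 0 among 25 is near them. Among 30 RAS-RAF-MEK-ERK pathway genes there were 0 in the knockdown list and 4 in the wild-type list. HRAS, with a knockdown peak of 1989 bp (fold 40.8) under 3504 bp (fold 139), was the strongest. The ERK targets EGR1 and DUSP5 and the inhibitor gene SPRED2 were the other 3.

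Genes of the m6A machinery had a broad peak in 1 of 21 in the knockdown list and in 3 in the wild-type list. ALKBH5, the m6A demethylase gene, had 2014 bp (fold 4.801) under 2266 bp (fold 11.7). RBM15B, for a subunit of the writer complex, had 1594 bp (fold 5.17) under 2406 bp (fold 15.6), and the reader gene IGF2BP1 had 285 bp (fold 2.63) under 3122 bp (fold 8.31). That IGF2BP1 knockdown peak was no longer counted at a knockdown q-value under 0.01. Long non-coding RNA genes gave 2 of 18 in the knockdown list and 3 in the wild-type list, with NEAT1, the paraspeckle RNA gene (2118 bp under 2206 bp), MIR17HG, the host of the miR-17-92 cluster (2109 bp over 2014 bp), and KCNQ1OT1 (2337 bp without a knockdown peak). The peak credited to KCNQ1OT1 had a fold of 4.30 and lay in the exon class, 116282 bp from the transcript start of that gene. Housekeeping genes gave 2 and 3 of 24. GAPDH had 1528 bp (fold 6.82) under 2413 bp (fold 22.2), and ACTB was credited with 3 broad peaks and YWHAZ with 1.

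Other groups were near or below the share of all protein-coding genes. The pro-apoptotic gene BCL2L11 was the only 1 of 24 apoptosis genes, with 2701 bp (fold 50.4) under 3705 bp (fold 214). CRELD2 was the only 1 of 24 endoplasmic reticulum stress and chaperone genes and HNRNPF of 24 splicing factor genes. The 2 peaks credited to CRELD2 lay 5583 and 10017 bp from its transcript start, in the distal intergenic and exon classes. Of 597 ZNF gene names, 6 in the knockdown list and 23 in the wild-type list (3.85%) had a broad peak, and all 27 such wild-type peaks overlapped a knockdown peak. ZNF687 had 2400 bp (fold 92.7) under 3348 bp (fold 274), and ZNF469 had 578 bp (fold 5.02) under 4531 bp (fold 9.63). Of 1866 microRNA gene names, 10 in the knockdown list and 65 in the wild-type list (3.48%) had one, and 24 of the 81 wild-type peaks had no knockdown peak. Ribosomal protein genes had 3 of 80 in the wild-type list (RPL36, RPL7A and RPS15). The RPS15 peak lay in the exon class, at a distance of -4047 bp from the transcript start. Among 97 histone gene names the only credit was to the antisense gene H1-10-AS1. The 24 cell cycle and replication genes, 39 HOX genes and 615 small nuclear and nucleolar RNA genes had none in either list. Only 645 of the microRNA names and 64 of the small nuclear and nucleolar RNA names had any wild-type peak. Their low shares are thus not directly comparable with the share of protein-coding genes.

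**Figure D5:**
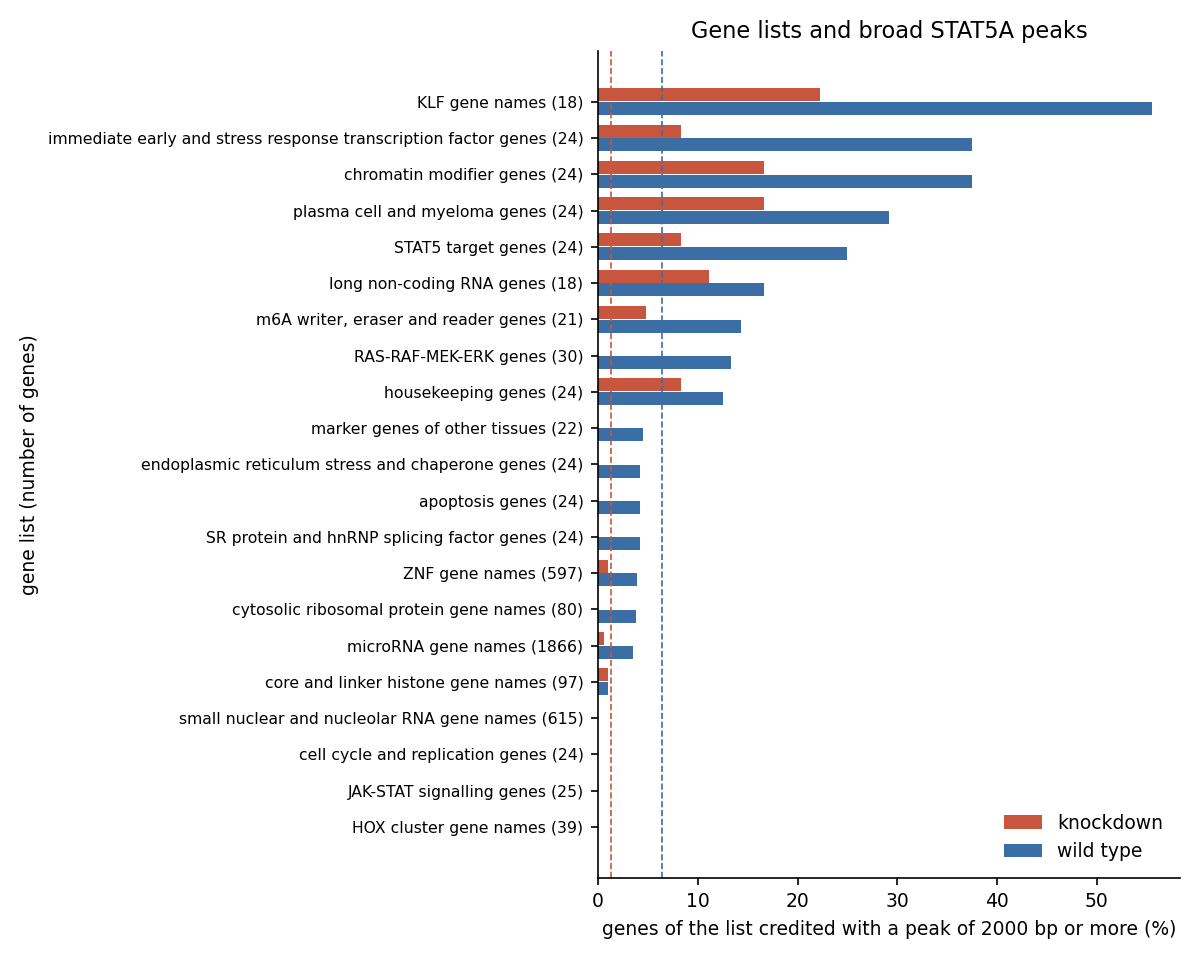
Bars give the percentage of genes in each list that were credited with a STAT5A peak of at least 2000 bp in knockdown (upper bar) and wild type (lower bar), and dashed lines give 1.25% and 6.41% for all protein-coding genes. KLF genes led in both conditions, and in every list the knockdown share was equal to or below the wild-type share.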

How the data were processed

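STAT5A ChIP-seq was measured in 4 libraries, and the files analysed were 2 peak lists, 1 per condition. Formaldehyde-fixed, sonicated chromatin was immunoprecipitated on magnetic beads, per the labels' protocols. Cutadapt, Trimmomatic, FastQC, Bowtie2, MACS2 and the hg38 build are named per the submitters' processing notes, without versions, and neither settings nor the software that assigned genes are given in the sources used here. Each list holds, as deposited by the authors, the position, width and summit of each peak, a fold enrichment (a linear ratio whose denominator is not stated), a p-value and q-value on a linear scale, the annotation class, the credited gene and the distance to its transcript start from the peak edge. The largest q-value is 0.05 in the knockdown list and 0.0497 in the wild-type list. A q-value of 0 is one too small for the number format of the deposited file. The fold is used only to describe, rank or divide peaks within a list. Depth is unknown.

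Overlaps of at least 1 bp were counted in Python 3.11.15 with numpy 2.4.6, pandas 2.3.3 and scipy 1.17.1, checked with bedtools 2.31.1 (1669 broad peaks by both) and tested on simulated data. Covered bases were counted once, whereas the summed width adds whole knockdown peaks. Intervals are exact 95% Clopper-Pearson and cover counting error only. Gene starts came from the RefSeq gene table of GRCh38.p14, an update of the same assembly as hg38. They covered 31632 of 42434 genes that are not pseudogenes (74.5%), since a strand was needed. Each gene gave 1 start, the outermost 5′ end of its span, so starts of shorter transcripts inside the span were not counted. The strand came from the RefSeq promoter table or, for genes missing there, from the peak lists. Genes of the latter kind were counted only where a peak was credited to them, so start counts rest in part on the peaks themselves. The chromosome end is position 1 or the end of the last annotated gene. Of the broad peaks, 1961 had a credited gene identifier found in the RefSeq gene table. Promoter sequences are those of the RefSeq promoter table, in which a missing promoter is not counted. That table holds no promoter of chromosome 8, where 65 broad peaks lay, and lacks some other genes. No genome sequence was used here, so the peaks themselves were not searched for motifs.

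The broad peaks, the 21 gene lists and the rule for named genes were chosen with earlier results of these data known. The rule names the 10 widest, the 8 of highest wild-type fold, the 6 with most knockdown peaks, the 6 with the largest summed knockdown width, the 10 widest without a knockdown peak, the 4 of highest knockdown fold, the 4 with most gene starts, the 8 widest more than 1 kb from a start, 3 on each side of the limit, up to 4 per gene list and 4 broad knockdown peaks over no broad wild-type peak. Other genes in a gene list are named to complete its count, and those named for 1 Mb windows, repeated credits and the widest knockdown peaks were chosen after their values were seen. A few peaks within this rule are not reported here. The groups were taken from the labels, and the conditions were not tested against each other, with 1 list each. Alternatives were other definitions of overlap, stricter q-values and folds, other width limits and promoter windows, merging of close peaks, autosomes only and protein-coding starts only.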

Additional observations from a re-analysis of the deposited data

How the results depend on the processing

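Of 41 alternative values for the main results, 16 stayed within the interval or within 1.5 times of the reported value and 25 moved, and the cause was not tested except where the alternative itself sets it, as a narrower definition of overlap or a new width limit does. The overlap share of 84.9% became 44.4% when at least 50% of the wild-type peak had to be covered, 65.2% when its summit had to lie inside a knockdown peak, 76.9% at a knockdown q-value under 0.001 and 44.0% at a knockdown fold of at least 5. With width limits of 1500, 2500 and 3000 bp, the number of peaks was 4481, 938 and 495. At the same limits the overlap share was 82.2, 87.7 and 90.5%, the median covered share 48.6, 38.7 and 35.7%, and the share with at least 2 knockdown peaks 24.8, 46.1 and 55.6%. At a knockdown q-value under 0.001 the median covered share was 39.4% and the share with at least 2 knockdown peaks 26.1%, and at a q-value under 0.01 the share with at least 2 was 33.3%. The promoter share of 70.7% was 56.9% by the distance from the summit and 76.6% with a window of 3 kb. With protein-coding genes alone, 4.58% of broad peaks held at least 2 starts. Chosen after seeing the data, the restriction to peaks more than 5 Mb from a chromosome end gave an overlap of 92.4%, and end windows of 2 and 10 Mb held 39.4 and 61.3% of broad peaks. When only as many top wild-type peaks by q-value were kept as there are knockdown peaks, also chosen afterwards, 1934 broad peaks were left, of which 85.9% overlapped a knockdown peak. Merging peaks within 100 bp changed nothing, since the smallest gap was 212 bp in the knockdown list and 222 bp in the wild-type list. Of 90 named broad peaks, 19 changed in covered share at a q-value under 0.001, and 4 of them (MIR1225, ACSF3, IGF2BP1 and FGFR3) lost their knockdown peaks. No paired analysis was possible because each condition has a single peak list. Shares from lists of unknown depth describe these libraries, and a missing knockdown peak is a peak not called at this depth, not absent binding.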

Other observations

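The position of the summit inside the peak differed from that of narrower peaks. In broad peaks the summit lay at a median of 29.7% of the width from the nearer edge, against 33.3% in narrower wild-type peaks, and within 20% of the width from an edge in 560 of 1967 (28.5%), against 18.4%. The narrower peaks had a median width of 491 bp and were not divided by width, so the part of width in this difference was not tested. The credited genes were protein-coding for 85.9% of broad peaks and 83.4% of all wild-type peaks, long non-coding for 9.61 and 11.8%, and microRNA genes for 3.86 and 3.53%. Of the credited genes, 250 had at least 2 broad peaks.

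Among microRNA genes, MIR124-3, a precursor gene of the neuronal miR-124, had 1 knockdown peak of 951 bp with a fold of 4.38 under a wild-type peak of 3795 bp with a fold of 10.5. MIR3187 had a knockdown peak of 1358 bp (fold 4.60) under a wild-type peak of 4090 bp (fold 18.1), and MIR4321 one of 414 bp (fold 3.56) under 4697 bp (fold 14.0). A microRNA gene inside or beside a longer gene shares that gene's peak, so the credit does not show which gene the peak serves. These 3 were picked after their values were seen.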
